A study of Mus musculus with 18 samples.

Results

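The 9 genes described here encode the thyroid hormone receptors (Thra, Thrb), their retinoid X receptor partners (Rxra, Rxrb, Rxrg), the nuclear receptor corepressor NCoR (Ncor1) with its histone deacetylase (Hdac3), and the coactivators Ncoa1 and Ncoa2. They were chosen by gene symbol, and all 9 were found once in each table of 24054 genes. RNA was sequenced from the hypothalamus, pituitary and thyroid of WT mice and of mice carrying the THRB K146Q mutation, 3 tissues by 2 genotypes with 3 mice each, 18 libraries in all. The WT mice were numbered 1, 2 and 43 and the K146Q mice 60, 62 and 83, and the same numbers recur in every tissue. All were untreated males of strain C57BL/Ntac, 3 months old. The K146Q mice were homozygous for a knock-in substitution present in every tissue, which removes a sumoylation site common to the THRB isoforms. The substitution lies in the native Thrb allele, so the mutant receptor can be made only where Thrb itself is expressed. Each value is a normalized CPM, in which the reads of a gene are scaled to a common library size after the authors' normalization factor.

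Thyroid hormone receptors bind DNA at response elements, mostly as heterodimers with a retinoid X receptor. Without hormone the heterodimer holds a corepressor complex in which NCoR carries HDAC3, and T3 exchanges this complex for coactivators of the p160 family. THRA is the prevailing receptor in brain, whereas THRB, in particular its isoform THRB2, carries out the feedback of T3 on TSH in the pituitary and on TRH in the hypothalamus. RXRG is known as the retinoid X receptor of the thyrotroph, the TSH-producing cell of the pituitary.

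The mutated residue belongs to the zinc finger region with which the receptor binds DNA, and its codon is shown with the matching codon of Thra. On GRCm38 the Thrb stretch is chr14:18008590-18008652 on the plus strand, inside a coding exon, with the K146Q codon at chr14:18008620-18008622. The Thra stretch is chr11:98760897-98760959 on the plus strand, also coding, and the aligned lysine is residue 92 there. Capitals mark the lysine codons.
Thrb: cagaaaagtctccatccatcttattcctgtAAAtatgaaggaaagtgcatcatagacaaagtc
Thra: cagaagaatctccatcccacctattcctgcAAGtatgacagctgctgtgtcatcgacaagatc
Of the 63 bases 45 were identical (71.4%), and of the 21 residues 14 (66.7%). Over the aligned part of the proteins 270 of 335 residues were identical (80.6%), a higher share than in the printed stretch. The numbering is that of Thrb1, which has 461 residues, and in the longer Thrb2 isoform the same codon is number 160 of 475. Codon and numbers are those of the reference annotation and differ from those the study gives for the targeted codon and for Thrb2. A gene-level value adds these isoforms together and does not read the substituted base, so the Thrb level checks neither the genotype label nor which isoform was made.

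Of the 9 genes, Thra (chr11:98740638-98769006) shares 263 exonic bases with Nr1d1 on the opposite strand, 5.7% of its merged exons. Nr1d1 encodes the clock repressor REV-ERBα. Ncor1 shares 0.64% of its exonic bases with Pigl and Ncoa1 0.793% with an antisense gene. Whether the reads were counted by strand is not given in the sources used here, so reads in these bases, which are 8.55% of the merged exons of Nr1d1, cannot be told apart between Thra and Nr1d1. How much of the Thra value they make up was not measured.

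Promoter sequence of RefSeq (GRCm38.p6, 250 bases before to 50 after each start) was at hand for 6 members. The nuclear receptor half-site AGGTCA, searched on both strands, was in 3 of their 11 promoters, and in 16.3% of all 32851 promoters. Thrb and Rxrg, the members with the largest genotype differences below, each had 1 match in 1 promoter and none in their other promoter. The matches are shown in capitals with their flanks.
Thrb, chr14:17660746-17660811, plus strand: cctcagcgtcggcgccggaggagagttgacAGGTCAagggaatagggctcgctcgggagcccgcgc
Rxrg, chr1:167618147-167618212, plus strand: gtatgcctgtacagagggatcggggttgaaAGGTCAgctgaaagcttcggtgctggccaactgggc
The third promoter, of Rxra, held 2 matches, and the other Rxra promoter none. The letters TGACGTCA (1.79% of all promoters) and AGATAA (11.2%) were in none of the 11. These are matches of letters in a window and no measurement of binding.

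The libraries held 14902330 to 21230050 reads, and the deposited values could be turned back into whole reads. 3 reads correspond to 0.133 to 0.190 CPM. The least abundant member, Rxrg in the K146Q thyroid, still rested on 14 to 47 reads per library. No pair of libraries of 1 group held the same counts within sampling noise (chi-square per degree of freedom of 5.88 or more), as a library deposited again would.

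The labelled tissues carried their own markers. Gh, the growth hormone gene, stood between 62503 and 213048 CPM in the pituitary, and Tg, the thyroglobulin gene, between 83869 and 357296 CPM in the thyroid. The 7 hypothalamus markers summed to 1723 to 1908 CPM in that tissue, with the neuronal gene Snap25 the most abundant. Markers of other tissues were read as well. Gh was at 81.9 to 113 CPM in the hypothalamus libraries, and Tg was at 133 to 167 CPM there and at 119.9 to 169.7 CPM in the pituitary libraries. In the thyroid of WT mouse 1, Gh was at 365 CPM, against 125 and 99.6 in WT mice 2 and 43 and 72.1 to 108 in the K146Q thyroids. The summed skeletal muscle markers in the thyroid ran from 301 CPM in WT mouse 1 to 5828 CPM in WT mouse 43. Parathyroid and C cell markers were present in every thyroid library. Where these transcripts came from was not tested. The thyroid results are therefore also given without WT mouse 1.

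WT levels were compared first, to see how the receptors and their partners are distributed along the axis. Tests in this comparison were made with limma on log2(CPM + 0.5) over 16622 genes with at least 0.5 CPM in 3 or more of the 9 WT libraries, and the adjusted p is that of Benjamini and Hochberg. Tissues differ so widely that 72.5% of all genes passed between pituitary and hypothalamus, 81.3% between thyroid and hypothalamus and 74.8% between thyroid and pituitary. Of the 9 members 8, 7 and 7 passed. These counts are near the shares of all genes, so the sizes of the differences are described. In a piece of tissue, fewer cells of a type and less RNA per cell cannot be told apart.

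Thra was highest in the hypothalamus, at 323, 288 and 293 CPM in WT mice 1, 2 and 43. It was at 134, 111 and 87.9 CPM in the WT pituitary and at 45.4, 56.8 and 41.0 CPM in the WT thyroid. No 2 tissues overlapped. Its log2 difference was -1.46 (SE 0.15, limma adjusted p = 8.82e-06) for pituitary against hypothalamus, -2.66 (SE 0.15, adjusted p = 4.11e-08) for thyroid against hypothalamus and -1.20 (SE 0.15, adjusted p = 3.98e-05) for thyroid against pituitary.

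Thrb had another order, with the pituitary first. Its values were 104, 97.7 and 106 CPM in the WT pituitary, 27.0, 28.8 and 28.1 CPM in the WT hypothalamus and 14.9, 16.3 and 15.6 CPM in the WT thyroid. The pituitary level was 3.62-fold that of the hypothalamus (log2 difference 1.86, SE 0.07, limma adjusted p = 5.01e-09), and the thyroid level was 1.77-fold lower than that of the hypothalamus (log2 difference -0.82, SE 0.07, adjusted p = 1.15e-06). The SD among the 3 mice of a tissue was 0.679 to 4.35 CPM, less than each step between tissues.

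The retinoid X receptors differed in where they were highest. Rxrg stood at 66.9, 68.3 and 66.1 CPM in the WT pituitary, at 11.9, 11.9 and 14.2 CPM in the hypothalamus and at 3.54, 3.54 and 3.01 CPM in the thyroid. Its pituitary level was 5.14-fold that of the hypothalamus and 17.5-fold that of the thyroid (limma adjusted p = 1.62e-08 and 2.82e-10), the steepest gradient among the members. Rxra rose from 58.9 ± 3.22 CPM (SD, n = 3) in the hypothalamus to 79.1 ± 8.79 in the pituitary and 139 ± 12.9 in the thyroid, and each of the 3 steps passed, with limma adjusted p of 0.00242 or less. Rxrb was lowest in the pituitary, at 40.1 ± 3.77 CPM (SD, n = 3), against 53.7 ± 1.32 in the hypothalamus and 60.3 ± 2.93 in the thyroid. Its thyroid and hypothalamus levels did not pass the test (log2 difference 0.16, 95% interval -0.01 to 0.34).

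The coregulators differed by at most 1.94-fold between any pair of tissues. Ncor1 was at 205 ± 14.2 CPM (SD, n = 3) in the WT hypothalamus, 283 ± 34.9 in the pituitary and 286 ± 10.7 in the thyroid. The last pair did not pass (log2 difference 0.02, 95% interval -0.19 to 0.23). Hdac3 fell from 87.7 ± 2.22 CPM in the hypothalamus to 67.9 ± 6.39 in the pituitary and 45.0 ± 3.48 in the thyroid (limma adjusted p of 0.00239 or less for each of the 3 pairs). Ncoa1 was at 136 ± 7.69 CPM in the hypothalamus and 143 ± 21.3 in the pituitary, which overlapped, and at 74.2 ± 4.78 CPM in the thyroid, 1.91-fold below the pituitary (adjusted p = 1.25e-05). Ncoa2 lay between 116 ± 1.60 CPM in the hypothalamus and 149 ± 20.98 in the pituitary, with only the pituitary against the hypothalamus passing (log2 difference 0.35, limma adjusted p = 0.0129).

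These between-tissue values depend on the scaling. With library totals recomputed without the 10 highest genes, the median of all genes moved by 0.24 on the log2 scale for pituitary against hypothalamus and by -0.23 for thyroid against pituitary, and the higher share of the calls moved from 51.0% to 62.8% and from 48.7% to 37.4%. Rxrb and Hdac3 then no longer differed between pituitary and hypothalamus (adjusted p = 0.142 and 0.387), Ncoa1 became higher in the pituitary (log2 difference 0.33, adjusted p = 0.0141), and Ncor1 and Ncoa2 became lower in the thyroid than in the pituitary (log2 difference -0.24 and -0.39, adjusted p = 0.0464 and 0.0104). Ncoa2 in pituitary against hypothalamus also lost its call without WT mouse 1 (log2 difference 0.24, adjusted p = 0.129) or WT mouse 43 (0.36, adjusted p = 0.0567), and it gained one in thyroid against pituitary without WT mouse 2 (-0.31, adjusted p = 0.0209).

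**Figure D1:**
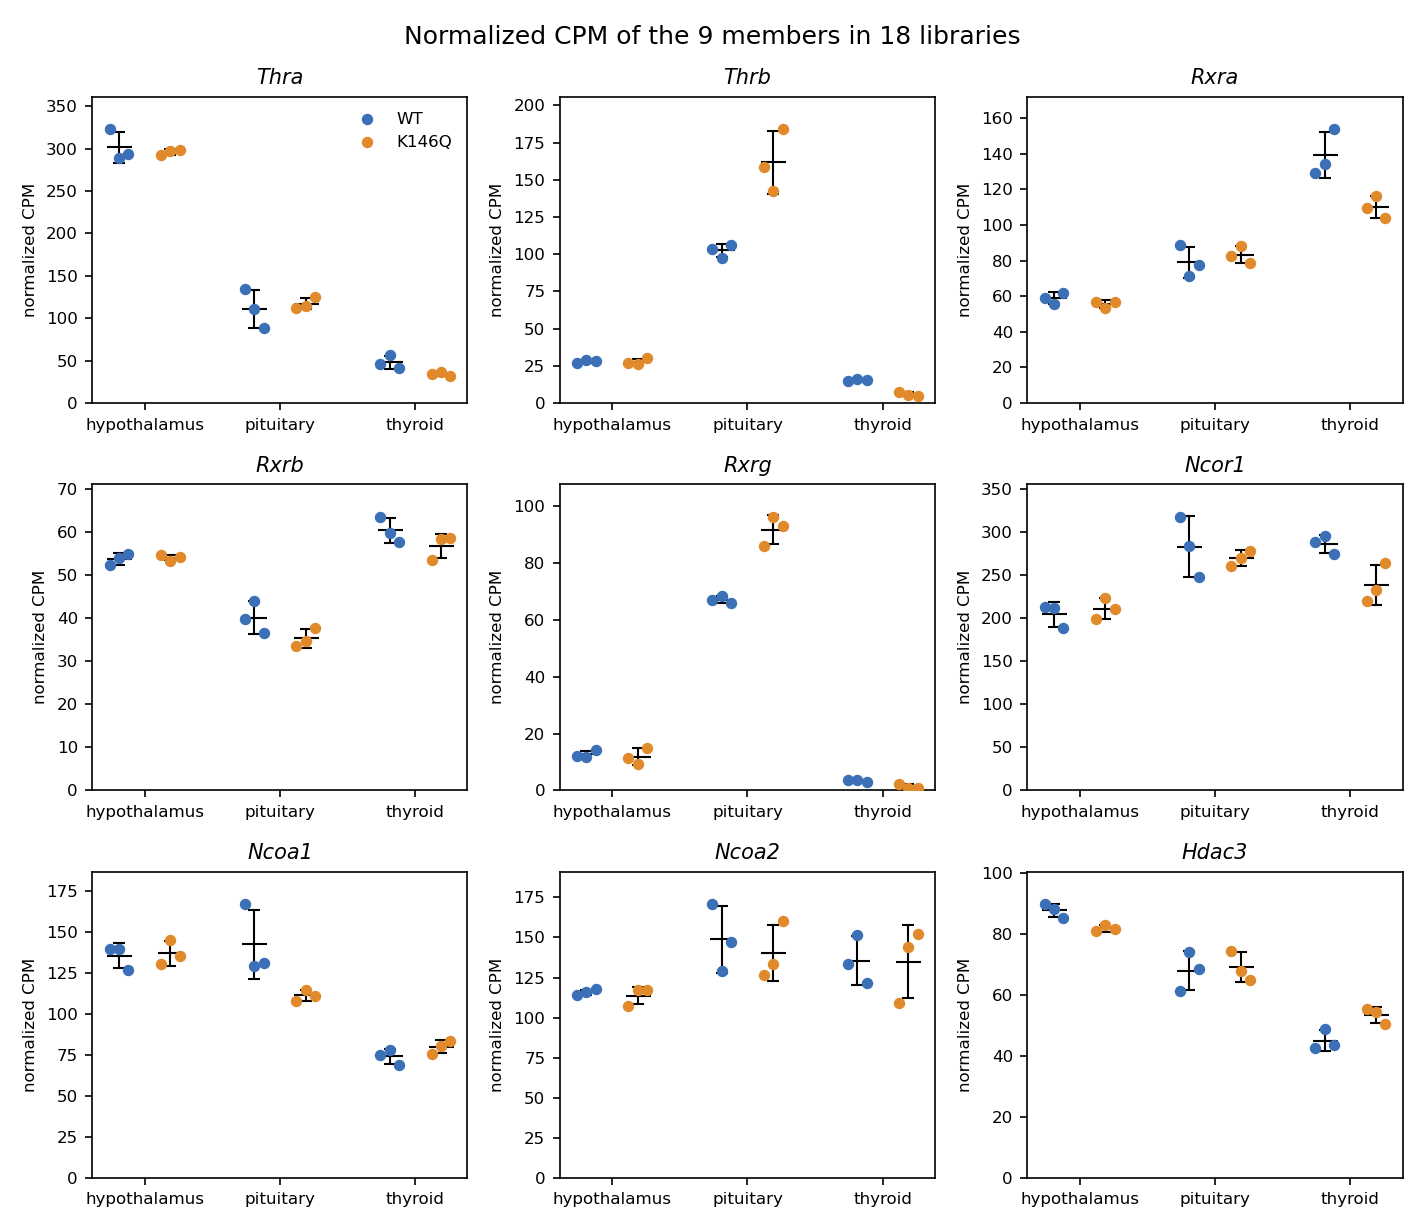
Normalized CPM (y axes, from 0) of each member in the hypothalamus, pituitary and thyroid (x axes); each point is a library, blue for WT and orange for K146Q, and the bars give the mean and SD of 3 mice. Thrb and Rxrg stand apart in the pituitary and separate the genotypes there and in the thyroid, while Thra is highest in the hypothalamus.

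The genotypes were then compared within each tissue, to ask whether the receptor mutation changed the mRNA of the receptors themselves or of their partners. Each tissue was fitted alone, 3 mice against 3. An exact permutation test of 3 against 3 cannot give a two-sided p below 0.1, so it can call no single gene.

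In the hypothalamus no member differed between genotypes. Thrb was at 27.0, 28.8 and 28.1 CPM in the WT mice and at 26.7, 26.1 and 29.96 CPM in the K146Q mice. Thra was at 323, 288 and 293 CPM in the WT and 292, 297 and 299 CPM in the K146Q mice. The groups overlapped for both. The log2 fold change of Thrb was -0.02 (95% interval -0.17 to 0.13) and that of Thra -0.02 (95% interval -0.13 to 0.08). All 9 members lay within 0.11 of 0 on the log2 scale. Rxrg had the widest interval, -0.45 to 0.23. Hdac3 was the member whose genotypes did not overlap, at 89.7, 88.1 and 85.3 CPM in the WT and 80.8, 82.8 and 81.7 CPM in the K146Q mice, a log2 fold change of -0.10 (95% interval -0.19 to -0.01, limma adjusted p = 0.998). Of all 15761 genes tested 9.15% had no overlap. Limma called 0 genes (0%) in this tissue, with 645 at an unadjusted p under 0.05. edgeR on the recovered reads called 0 genes and DESeq2 9, none of them a member.

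In the pituitary, Thrb and Rxrg rose. Thrb was at 104, 97.7 and 106 CPM in the WT mice and at 159, 142 and 184 CPM in the K146Q mice. Every K146Q pituitary was above every WT pituitary, and the K146Q mice spread more widely. The log2 fold change was 0.65 (SE 0.10, limma adjusted p = 0.00285), 1.57-fold. Rxrg was at 66.9, 68.3 and 66.1 CPM in the WT and 86.0, 96.2 and 92.9 CPM in the K146Q mice, again without overlap, a log2 fold change of 0.45 (SE 0.07, limma adjusted p = 0.00466), 1.36-fold. Both calls stood in all 15 alternative settings, which include leaving out each of the 6 mice. These were 2 of 9 members called, both higher, where 9.86% of the 15589 genes tested were called, 6.36% higher and 3.5% lower. With totals recomputed without the 10 highest genes the higher share of the calls was 48.7%, against 64.5% as given.

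The other 7 members of the pituitary did not pass. Ncoa1 was at 167, 129 and 131 CPM in the WT mice and at 108, 115 and 111 CPM in the K146Q mice. Its groups did not overlap, as for 31% of all genes, and its log2 fold change was -0.34 (SE 0.10, limma adjusted p = 0.0593). DESeq2 and the scaling without the 10 highest genes called it (adjusted p = 0.0164 and 0.0261). Thra, the other receptor, gave a log2 fold change of 0.10 (95% interval -0.20 to 0.39), with a WT spread from 87.9 to 134 CPM that covered all 3 K146Q values. Rxra gave 0.08 (95% interval -0.13 to 0.28) and Rxrb -0.18 (95% interval -0.39 to 0.03). Ncor1 gave -0.06 (95% interval -0.27 to 0.14), Ncoa2 -0.09 (95% interval -0.35 to 0.18) and Hdac3 0.03 (95% interval -0.18 to 0.23). Nr1d1, the neighbour that overlaps Thra, gave 0.32 (95% interval -0.37 to 1.005).

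The pituitaries of the 2 genotypes also differed in their thyrotroph markers. Tshb, the TSH β subunit gene, stood at 539, 235 and 593 CPM in the WT and at 8183, 7166 and 5600 CPM in the K146Q mice (log2 fold change 4.03, SE 0.30, limma adjusted p = 9.24e-05). Cga, the α subunit gene, and Trhr, the TRH receptor gene, rose with it by 2.42 and 2.75 on the log2 scale, so that 3 of 3 markers rose. The summed thyrotroph markers ran from 3398 to 4609 CPM in the WT and from 21859 to 28977 CPM in the K146Q pituitaries, with Cga the most abundant and none at 0. In the other pituitary list Prl, the prolactin gene, fell (log2 fold change -1.65, limma adjusted p = 0.000603), and Gh, its most abundant gene, did not pass (-0.97, adjusted p = 0.0737). That list summed to 129850 to 252490 CPM in the WT and 81166 to 93407 CPM in the K146Q mice. Of the other marker lists, 2 of 5 tested hypothalamus markers were higher in the K146Q pituitary (Gad1 by 3.50 and Snap25 by 0.25 on the log2 scale), with a list median of -0.06. Of the parathyroid and C cell markers 1 of 3 was higher (Casr, by 2.61), of the endothelial markers 1 of 4 (Pecam1, by 0.45) and of the immune markers 1 of 2 tested (Ptprc, by 0.93). Thrb and Rxrg rose by less than any thyrotroph marker. The part of cell composition in their rise was not tested.

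In the thyroid, 4 members fell. Thrb was at 14.9, 16.3 and 15.6 CPM in the WT mice and at 7.19, 5.64 and 4.98 CPM in the K146Q mice. Every K146Q thyroid was below every WT thyroid. The log2 fold change was -1.33 (SE 0.15, limma adjusted p = 0.000621), 2.52-fold lower, and the call stood in all 15 alternative settings. Rxrg was at 3.54, 3.54 and 3.01 CPM in the WT and 2.33, 0.823 and 0.938 CPM in the K146Q mice, a log2 fold change of -1.14 (SE 0.30, limma adjusted p = 0.0210). K146Q mouse 60 lay nearest to the WT mice. Thra was at 45.4, 56.8 and 41.0 CPM in the WT and 34.2, 36.2 and 32.3 CPM in the K146Q mice (log2 fold change -0.46, SE 0.13, limma adjusted p = 0.0245). Rxra was at 129, 134 and 154 CPM in the WT and 109.8, 116 and 104 CPM in the K146Q mice (log2 fold change -0.34, SE 0.09, limma adjusted p = 0.0236). In all 4 the genotypes did not overlap.

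The thyroid is also the tissue in which most other genes moved. Of 15200 genes tested, 37.8% were called, 19.7% higher and 18.1% lower, and 52.3% had no overlap between genotypes. The higher share of the calls was 52.1%, and 40.9% with totals recomputed without the 10 highest genes. The members had 4 of 9 called, all lower, and 6 of 9 without overlap. The calls of Thra, Rxra and Rxrg were lost when certain mice were left out, with the direction kept each time. Thra lost its call without K146Q mouse 60, 62 or 83 (log2 fold change -0.46, -0.50 and -0.42, adjusted p = 0.0619, 0.0574 and 0.0702). Rxra lost it without K146Q mouse 60, 62 or 83 (-0.34, -0.38 and -0.30, adjusted p = 0.0592, 0.0514 and 0.0625) or WT mouse 43 (-0.26, adjusted p = 0.0697). Rxrg lost it without K146Q mouse 62 or 83 (-0.93 and -0.99, adjusted p = 0.0773 and 0.0686) or WT mouse 1 or 2 (-1.10 each, adjusted p = 0.0542 and 0.0535). Without WT mouse 1, whose thyroid held the most Gh, the log2 fold changes were -1.37 for Thrb, -0.49 for Thra, -0.39 for Rxra and -1.10 for Rxrg.

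The coregulators of the thyroid did not pass by limma. Ncor1 was at 289, 295 and 274 CPM in the WT mice and 219.7, 233 and 265 CPM in the K146Q mice, a log2 fold change of -0.26 (SE 0.09, limma adjusted p = 0.0623). Hdac3 moved the other way, from 42.5, 49.0 and 43.5 CPM to 55.2, 54.5 and 50.5 CPM, a log2 fold change of 0.25 (SE 0.09, limma adjusted p = 0.0596). For both genes the genotypes did not overlap, and both adjusted p-values lie close to the threshold. Ncor1 passed by DESeq2 (-0.25, adjusted p = 0.0492), with totals recomputed without the 10 highest genes (-0.36, adjusted p = 0.0240) and without K146Q mouse 83 (-0.34, adjusted p = 0.0267), and Hdac3 passed without WT mouse 2 (0.31, adjusted p = 0.0372). Ncoa1 gave 0.11 (95% interval -0.08 to 0.30), Ncoa2 -0.02 (95% interval -0.35 to 0.32) and Rxrb -0.09 (95% interval -0.27 to 0.10). Nr1d1 gave 0.07 (95% interval -0.89 to 1.03) and spread from 83.1 to 248 CPM among the WT thyroids.

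Markers of several cell types differed between the thyroids of the 2 genotypes. All 4 adipose markers fell, and their sum ran from 359.9 to 405 CPM in the WT and from 54.1 to 108 CPM in the K146Q mice. All 3 parathyroid and C cell markers fell, from a sum of 5581 to 8408 CPM to one of 681 to 1866 CPM, with Pth, the parathyroid hormone gene, the most abundant. All 4 proliferation markers rose, among them Mki67, from a sum of 44.4 to 68.5 CPM to one of 159 to 205 CPM. Of the endothelial markers 2 of 4 and of the immune markers 2 of 3 tested rose, and 2 of 3 astrocyte and 2 of 3 tested oligodendrocyte markers fell. Of the thyrotroph markers 1 of 3 rose (Trhr, from 0.0601 to 0.316 CPM in the WT to 2.53 to 3.40 CPM in the K146Q mice), and of the hypothalamus markers 1 of 3 tested fell (Snap25, from 6.96 to 10.04 CPM to 1.35 to 3.87 CPM). None of the 4 skeletal muscle markers passed. Of the 6 follicular markers Duox2, an oxidase of hormone synthesis, was the 1 called by limma, and it was lower (log2 fold change -0.95, adjusted p = 0.00207). The list's median log2 fold change was 0.01. Duoxa2, the maturation factor of that oxidase, gave 0.40 (adjusted p = 0.0552) and Slc5a5, the iodide transporter, 0.29 (adjusted p = 0.288), and neither passed.

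Tg stood at 349907, 357296 and 293439 CPM in the WT and 83869, 96214 and 130421 CPM in the K146Q mice. Its log2 fold change of -1.71 passed by limma without the variance trend (adjusted p = 0.00127) and by edgeR (0.0221) and not with the trend (SE 5.15, adjusted p = 0.820). No adipose, parathyroid and C cell, proliferation, muscle or follicular marker was at 0 in any thyroid library. How far the cell composition of the thyroid entered the falls of Thrb, Rxrg, Thra and Rxra was not tested.

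**Figure D2:**
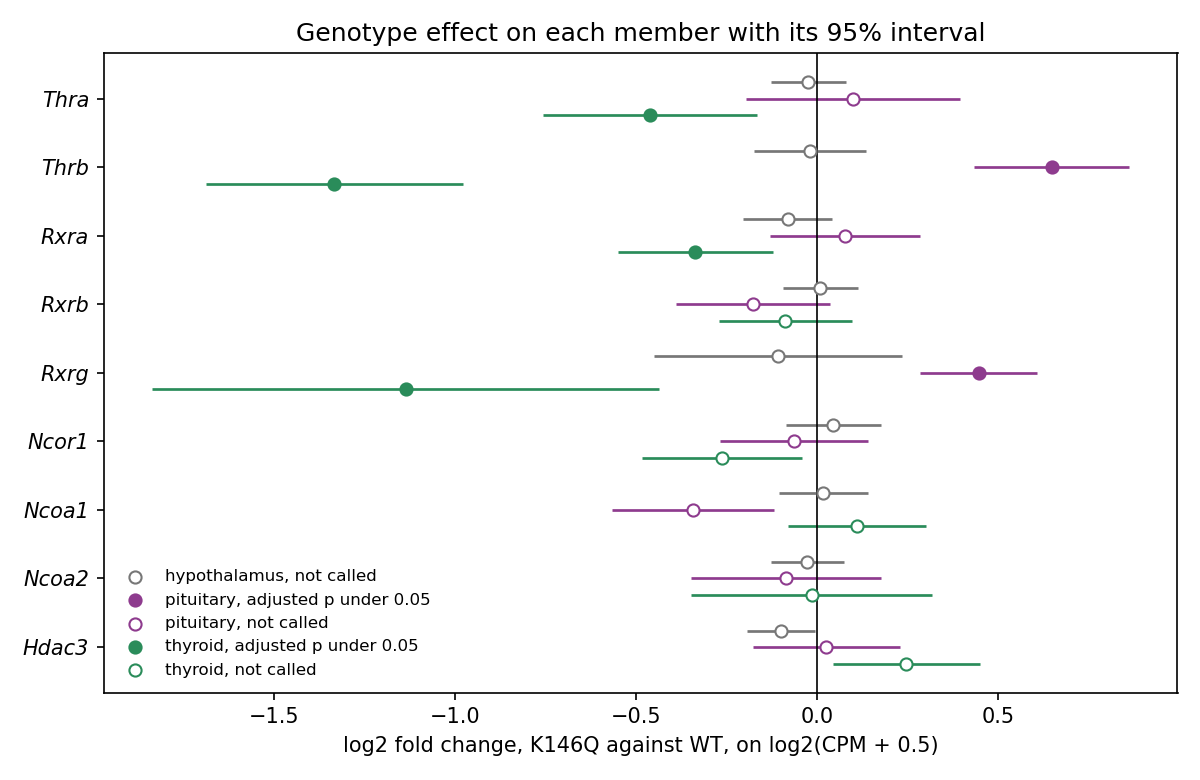
Log2 fold change of K146Q against WT (x axis) for each member (y axis) in the hypothalamus (grey), pituitary (purple) and thyroid (green); bars are 95% intervals of limma fits on 3 mice against 3, and filled points passed at an adjusted p under 0.05. Thrb and Rxrg lie to the right in the pituitary and to the left in the thyroid, and all hypothalamus points lie near 0.

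Whether the genotype effect differed between tissues was tested directly over all 18 libraries and 17140 genes. Each gene had 1 estimate of its spread, shared by the 3 tissues. The signed K146Q effect on Thrb was higher in the pituitary than in the hypothalamus by 0.67 on the log2 scale (SE 0.15, limma adjusted p = 0.0223), lower in the thyroid than in the hypothalamus by a difference of -1.31 (SE 0.15, adjusted p = 7.62e-06), and lower in the thyroid than in the pituitary by a difference of -1.98 (SE 0.15, adjusted p = 6.43e-08). Thrb was the only member with a call in all 3 of these contrasts. In pituitary against hypothalamus it was 1 of 9 members, where 3.24% of all genes were called. That call was lost without K146Q mouse 60 or 62 (difference 0.65 and 0.72, adjusted p = 0.0516 and 0.065). Leaving out WT mouse 1, 2 or 43 also lost it (0.70, 0.61 and 0.69, adjusted p = 0.0718, 0.119 and 0.08).

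Rxrg differed between thyroid and pituitary by -1.58 (SE 0.30, limma adjusted p = 0.000713) and between thyroid and hypothalamus by -1.03 (SE 0.30, adjusted p = 0.0164). The second of these was lost without K146Q mouse 83 (-0.71, adjusted p = 0.122), WT mouse 1 (-0.95, adjusted p = 0.0721) or WT mouse 2 (-0.95, adjusted p = 0.0774). Between pituitary and hypothalamus the Rxrg difference was 0.55 (95% interval -0.09 to 1.198). The shared spread behind this interval includes that of the thyroid. Fitted alone, the tissues gave Rxrg an SE of 0.07 in the pituitary, 0.15 in the hypothalamus and 0.30 in the thyroid. Beside Thrb and Rxrg, the genotype effects in thyroid and pituitary differed for Thra (-0.56, limma adjusted p = 0.0198), Rxra (-0.41, adjusted p = 0.0120) and Ncoa1 (0.45, adjusted p = 0.00842). That makes 5 of 9 members, where 33.8% of all genes were called. The call of Thra was lost without K146Q mouse 60, 62 or 83 (-0.59, -0.62 and -0.48, adjusted p = 0.0555, 0.0525 and 0.108) or WT mouse 2 (-0.44, adjusted p = 0.0881). That of Rxra was lost without WT mouse 43 (-0.33, adjusted p = 0.0663).

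In thyroid against hypothalamus 30.8% of all genes were called, and 3 of 9 members. The third was Hdac3, with a difference of 0.35 (SE 0.11, limma adjusted p = 0.0195). Its call was lost with the scaling without the 10 highest genes (0.25, adjusted p = 0.119). Leaving out K146Q mouse 60 or 62 also lost it (0.31 and 0.34, adjusted p = 0.075 and 0.0882). So did leaving out WT mouse 1 or 43 (0.29 and 0.34, adjusted p = 0.0621 and 0.0609). The labels give the same mouse numbers in every tissue, and the design names 3 mice of each genotype. With the mouse number as a replicate block, Thra (-0.44, limma adjusted p = 0.0412) and Ncor1 (-0.31, adjusted p = 0.024) were called too, which raised the count to 5 members. The 3 contrasts share tissues, so they are not independent of each other. With totals recomputed without the 10 highest genes, the higher share of all calls moved from 70.8% to 59.2% in pituitary against hypothalamus and from 50.7% to 39.0% in thyroid against hypothalamus.

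To compare genes with each other, each CPM was divided by the length of the merged exons of its gene, which gives CPM per kb. In the WT hypothalamus Thra was at 65.3 ± 4.03 CPM per kb (SD, n = 3) and Thrb at 3.77 ± 0.123, so that Thrb made up 5.48% ± 0.472 of the receptor sum. In the WT pituitary Thra was at 24.01 ± 4.96 CPM per kb and Thrb at 13.9 ± 0.588, a Thrb share of 37.0% ± 5.35. In the WT thyroid they were at 10.3 ± 1.77 and 2.105 ± 0.0917 CPM per kb, a Thrb share of 17.1% ± 2.00. The pituitary was the tissue in which the receptors came closest to each other. The shares depend on the length used. With the longest transcript of each gene as its length, the WT Thrb share was 3.55% in the hypothalamus, 27.2% in the pituitary and 11.6% in the thyroid, with the same order of tissues.

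The Thrb share of the receptor mRNA was higher in the K146Q than in the WT pituitary and lower in the K146Q than in the WT thyroid. In the K146Q pituitary the share was 46.1% ± 2.20 (SD, n = 3), from 43.7% to 47.9%, against 32.6% to 42.95% in the WT mice (p = 0.1 by an exact permutation of the mice, two-sided, and no smaller value is possible). In the K146Q thyroid it was 9.74% ± 1.60 (SD, n = 3), from 8.77% to 11.6%, against 15.1% to 19.1% in the WT mice (exact permutation p = 0.1). The hypothalamus share was 5.49% ± 0.357 in the K146Q mice. The receptor sum was 37.9 ± 4.83 CPM per kb in the WT pituitary and 47.2 ± 4.11 in the K146Q pituitary, and 12.5 ± 1.83 in the WT thyroid and 8.22 ± 0.488 in the K146Q thyroid. With merged exons as the length, neither pair of groups overlapped. With the longest transcript the pituitary sums were 61.7 ± 9.16 in the WT and 73.8 ± 5.84 in the K146Q mice, and these groups overlapped. The thyroid sums were then 22.0 ± 3.41 and 14.9 ± 0.864 CPM per kb, without overlap.

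Among the retinoid X receptors the share of Rxrg differed in the same directions. Rxrg made up 54.3% ± 1.52 (SD, n = 3) of the summed Rxra, Rxrb and Rxrg level in the WT pituitary and 62.3% ± 0.845 in the K146Q pituitary, without overlap (exact permutation p = 0.1 with n = 3 each). The share of Rxrb was 18.8% ± 1.57 in the WT and 13.9% ± 0.858 in the K146Q pituitary, again without overlap. In the thyroid Rxra was the main form, at 60.4% ± 3.33 in the WT and 57.5% ± 1.57 in the K146Q mice. With the longest transcript as the length, Rxra and Rxrb made up 53.5% ± 3.44 and 43.4% ± 3.12 in the WT thyroid. In the K146Q thyroid they were then nearly equal, at 50.2% ± 1.67 and 48.4% ± 2.20. Rxrg made up 3.49% ± 0.442 in the WT thyroid and 1.71% ± 1.07 in the K146Q thyroid (exact permutation p = 0.1). In the hypothalamus Rxrb led, at 45.4% ± 1.41 in the WT and 47.0% ± 2.32 in the K146Q mice, and the genotypes overlapped for all 3 forms.

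**Figure D3:**
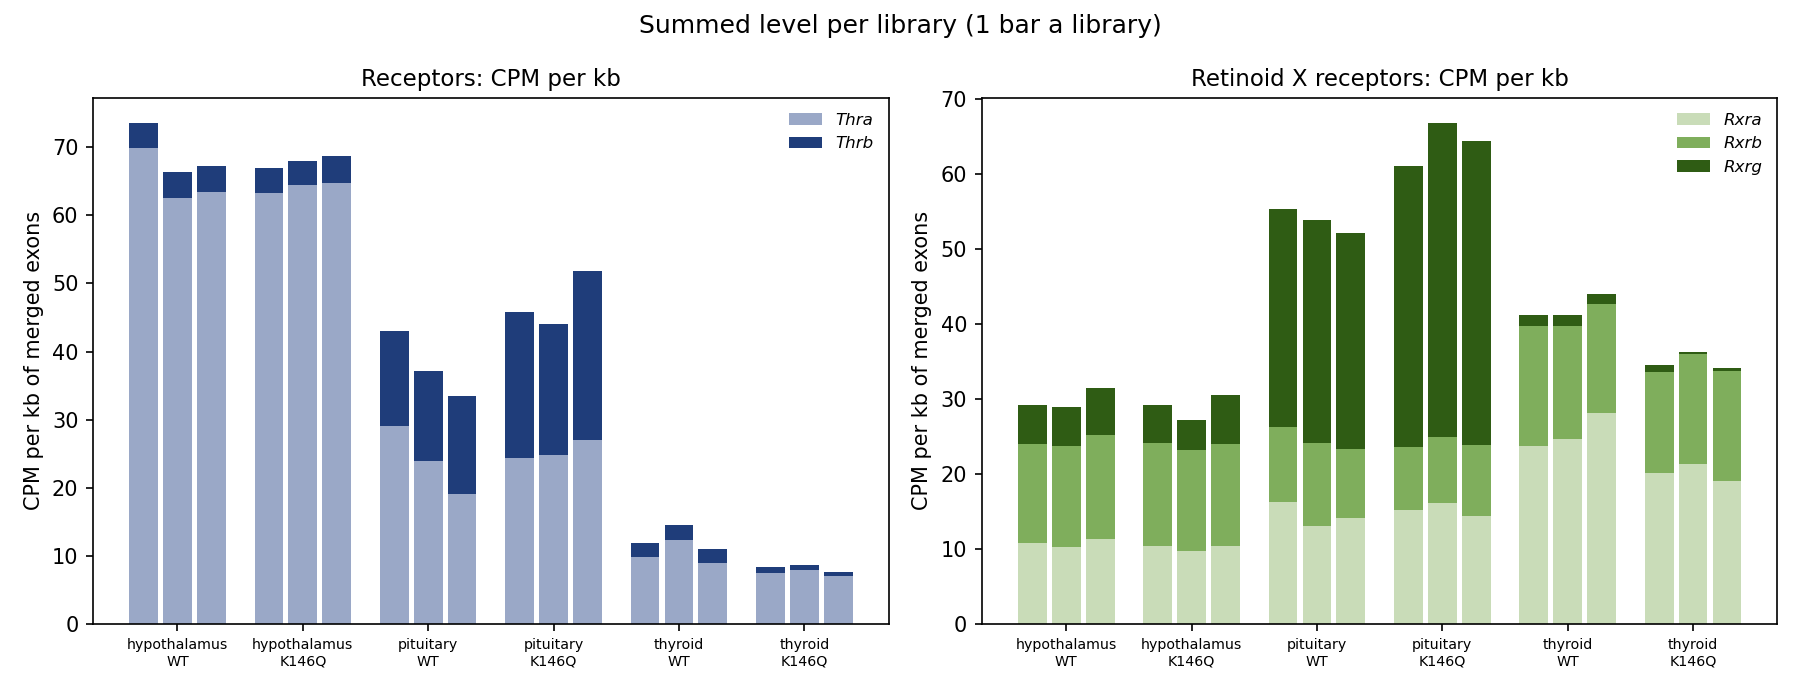
Level per library in CPM per kb of merged exons (y axes, from 0), stacked for Thra and Thrb (left) and for Rxra, Rxrb and Rxrg (right); each bar is 1 library, 3 per group on the x axes. Thrb and Rxrg make up a larger part of the pituitary bars than of the others, more in K146Q than in WT, and Rxrg is a thin cap on the thyroid bars.

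Among the coregulators per kb, Ncor1 was the highest in the WT pituitary at 22.1 ± 2.73 CPM per kb and in the WT thyroid at 22.3 ± 0.837, and Hdac3 in the WT hypothalamus at 21.6 ± 0.548. Ncoa2 was the lowest of the 4 in the WT hypothalamus, at 7.41 ± 0.102 CPM per kb, and in the WT pituitary, at 9.52 ± 1.34. With the longest transcript as the length these Ncoa2 values were 14.2 ± 0.195 and 18.2 ± 2.57. In the WT pituitary Hdac3 and Ncoa1 were then close to it, at 18.9 ± 1.78 and 19.5 ± 2.90 CPM per kb. In the WT thyroid Ncoa1 and Ncoa2 were at 8.66 ± 0.558 and 8.67 ± 0.971 CPM per kb, and at 10.1 ± 0.653 and 16.6 ± 1.86 with the longest transcript as the length.

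Other genes of the same pathway were read from 5 lists with 51 genes. In the hypothalamus none of the 50 tested passed. In the pituitary 3 of 51 passed, 1 higher and 2 lower, and in the thyroid 15 of 50, 7 higher and 8 lower, where 9.86% and 37.8% of all genes were called. The pituitary count was 1 without K146Q mouse 60 and 5 without WT mouse 43. The median log2 fold change over the listed genes was -0.08 in the pituitary and 0.00 in the thyroid, against -0.01 and -0.03 over all genes tested.

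The corepressor list (9 genes) holds other parts of the corepressor complexes. In the pituitary 1 of 9 passed and in the thyroid 3 of 9. In the thyroid Hdac2 rose from 65.1 ± 2.83 to 111 ± 4.08 CPM (SD, n = 3, log2 fold change 0.77, limma adjusted p = 0.000300). Sap30, a subunit of the SIN3 deacetylase complex, rose by 0.58, and Tbl1xr1, a core subunit of the NCoR complex, fell by 0.30 on the log2 scale. In the hypothalamus Hdac2 gave -0.01 (95% interval -0.11 to 0.09) and did not pass.

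Of the 11 coactivators none passed in the pituitary, where Ep300, an acetyltransferase, gave -0.14 (95% interval -0.31 to 0.03) and Ncoa6 -0.12 (95% interval -0.28 to 0.04). In the thyroid 3 of 11 passed. Ppargc1b and Ppargc1a, coactivators of mitochondrial genes that are abundant in brown fat and muscle, fell by 1.90 and 0.88 on the log2 scale (limma adjusted p = 0.000625 and 0.00215). Ppargc1b was at 10.5, 12.5 and 8.30 CPM in the WT and 2.73, 1.76 and 2.81 CPM in the K146Q mice. Prmt1, an arginine methyltransferase, rose by 0.33 (adjusted p = 0.0198). The adipose marker sum, given above, fell in the same thyroids, and its part in these falls was not tested. In the hypothalamus Ep300 (-0.05) and Crebbp (-0.02) did not pass.

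The SUMO list (16 genes) holds the modifiers, the enzymes that attach them and the proteases that remove them. None passed in the pituitary. Sumo3, which encodes one of the modifiers, was at 136 ± 6.41 CPM in the WT and 139 ± 2.28 in the K146Q pituitary (SD, n = 3). In the thyroid 3 of 16 passed. Among them Senp7, a SUMO protease, fell by 0.46 and Pias2, a SUMO ligase, fell by 0.35 on the log2 scale (limma adjusted p = 0.00949 and 0.0143). Sumo3 in the hypothalamus gave -0.01 (95% interval -0.14 to 0.11).

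Receptors that share RXR as a partner made up another list of 11 genes. In the pituitary 1 of 11 passed. Ppard, a fatty acid receptor, fell from 41.6, 53.2 and 54.4 CPM in the WT to 34.3, 34.6 and 33.5 CPM in the K146Q mice (log2 fold change -0.53, SE 0.11, limma adjusted p = 0.0149). In the thyroid 6 of 11 passed, 3 higher and 3 lower. Ppara, the receptor of fatty acid oxidation, was at 31.2, 28.9 and 20.3 CPM in the WT and 6.29, 6.58 and 5.16 CPM in the K146Q mice, a log2 fold change of -2.05 (SE 0.18, limma adjusted p = 0.000225). Ppard fell by 0.98, and Vdr, the vitamin D receptor that parathyroid cells also express, fell by 0.73 on the log2 scale. Nr4a2, an orphan receptor of the immediate-early type, rose by 1.17. Nr1h2 (-0.07) and Ppard (0.08) in the hypothalamus did not pass.

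The last list holds 4 factors whose binding the study also assayed. Gata2, the GATA factor that activates Tshb in thyrotrophs, rose in the pituitary from 75.3, 63.4 and 65.8 CPM in the WT to 148, 138 and 104 CPM in the K146Q mice (log2 fold change 0.92, SE 0.13, limma adjusted p = 0.00208). It was the single member of its list to pass in any tissue, and it moved beside the thyrotroph markers given above. Creb1 (-0.24) and Zfpm1 (0.03) in the thyroid and Creb1 (0.12) and Zfpm1 (0.07) in the hypothalamus did not pass.

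**Figure D4:**
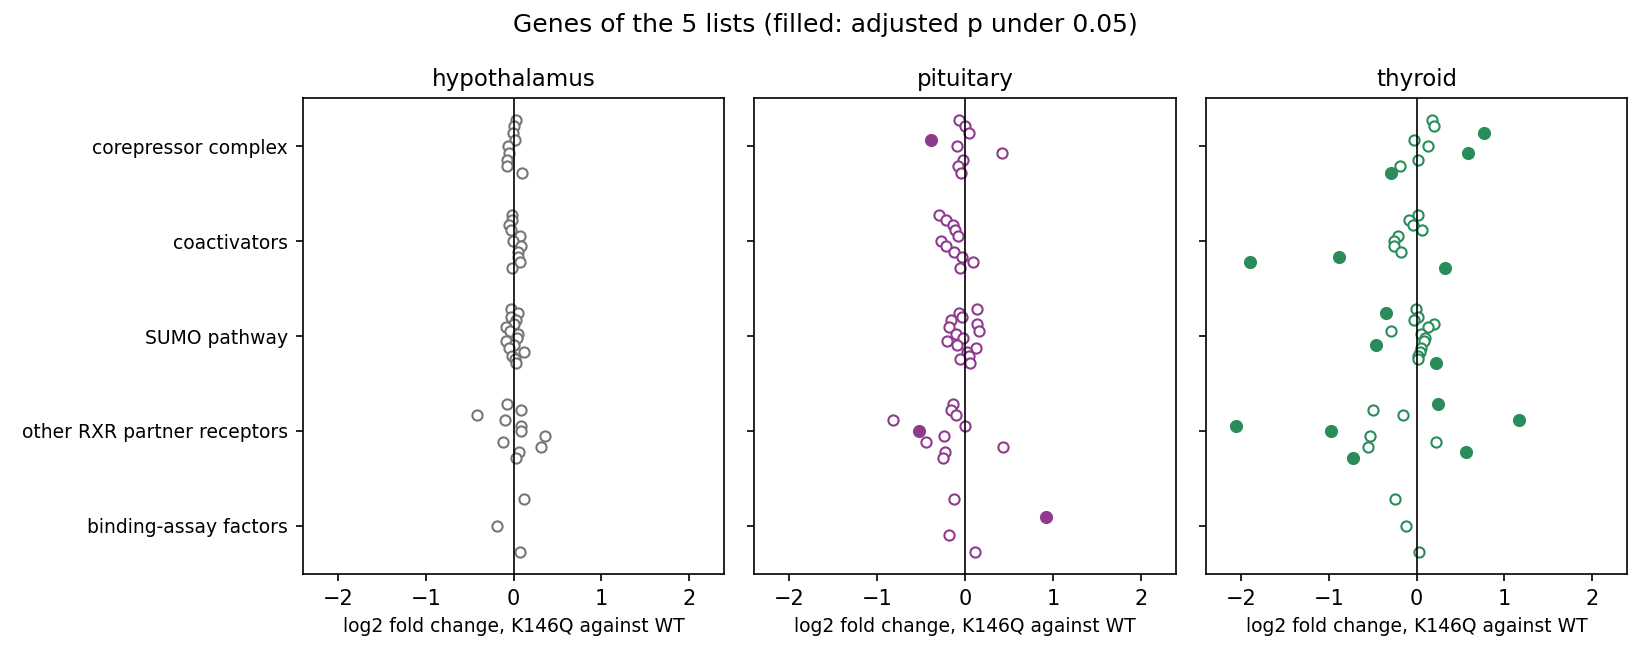
Log2 fold change of K146Q against WT (x axes) for the genes of the 5 lists (y axis) in each tissue; each point is a gene, filled where the limma adjusted p was under 0.05. No point is filled in the hypothalamus, 3 are in the pituitary and 15 in the thyroid.

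Genes with the most similar pattern over the 6 groups were found among 15440 genes with a mean of at least 1 CPM, as the root mean square difference of the centred group means on the log2 scale. Nearest to Thra were Sec61a2 (0.09), Lphn1 (0.09) and Prepl (0.09). Prepl, for example, had group means of 521, 179 and 72.9 CPM in the WT hypothalamus, pituitary and thyroid. Thrb had no neighbour as close. Its nearest genes were Htr3a (0.24), Efcab1 (0.27) and Lama1 (0.28). Nearest to Rxrg were Egfem1 (0.15), Fam183b (0.27) and Efcab1 (0.30). Egfem1 was at 22.9 CPM in the WT and 30.4 CPM in the K146Q pituitary and at 0.984 and 0.223 CPM in the thyroid, the same directions as Rxrg. Fam183b, at 47.2 CPM in the WT and 40.1 CPM in the K146Q pituitary and at 1.10 and 0.371 CPM in the thyroid, went the other way in the pituitary means. Efcab1, with 22.6 and 26.6 CPM in the pituitary and 1.57 and 0.370 CPM in the thyroid, was among the nearest genes of both Thrb and Rxrg. The likeness rests on 6 group means and is a description of these libraries.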

How the data were processed

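Hypothalamus, pituitary and thyroid RNA of 3 WT and 3 K146Q mice was sequenced on an Illumina instrument. The submitters' processing notes list bcl2fastq 2.17, Bowtie2 2.1.0, RSEM 1.2.15 and genome build mm10. The authors deposited a normalized signal per gene and library, in CPM of the library total times a normalization factor. The factors have a geometric mean of 1 over the 18 libraries, which is that of 1 joint normalization, so tissues were compared directly. Columns of their own comparisons (log2 fold change, mean log2 level, test statistic, p-value, FDR) were also deposited and are not used here. All 432972 values (100%) were whole reads within a tolerance of 0.05.

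Values were analysed as log2(CPM + 0.5) with limma 3.58.1 (R 4.3.3) and its trended variance, keeping genes that reached 0.5 CPM in 3 or more libraries. P-values were adjusted by Benjamini and Hochberg and called under 0.05. Fold changes on this scale understate the change of low genes. Joint fits left out 27 genes whose symbols had become dates. edgeR 4.0.16 and DESeq2 1.42.0 on the recovered reads were alternatives, beside other pseudocounts, filters and scalings and leaving out each mouse. Coordinates and exon lengths are from GENCODE M21 (GRCm38). The scripts were tested on simulated data.

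The members, lists and markers were chosen with earlier results of these data known. Named list genes are, per list and tissue, up to 4 that passed with the largest change, or else the 2 most abundant. Values of some listed genes are not reported here, though the list counts include them. Genotypes share no mouse number within a tissue. Across tissues the pairing rests on the mouse numbers in the labels, and deviations of the same number from its group means correlated between tissues by -0.0394 to 0.192 (median 0.0835, 18 pairs).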

Additional observations from a re-analysis of the deposited data

Results flagged for a closer look

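In 9 cases the genotype effect on a member differed between tissues by a direct test (limma, adjusted p under 0.05). These were 1 of 9 members for pituitary minus hypothalamus, 3 of 9 for thyroid minus hypothalamus and 5 of 9 for thyroid minus pituitary. Of all genes tested, 3.24%, 30.8% and 33.8% were called in these contrasts. Each value is the K146Q effect in the first tissue minus that in the second, on the log2 scale. For Thrb it was 0.67 for pituitary minus hypothalamus, -1.31 for thyroid minus hypothalamus and -1.98 for thyroid minus pituitary. For Rxrg it was -1.03 for thyroid minus hypothalamus and -1.58 for thyroid minus pituitary. For Hdac3 it was 0.35 for thyroid minus hypothalamus. For thyroid minus pituitary it was 0.45 for Ncoa1, -0.41 for Rxra and -0.56 for Thra. With certain mice left out, the calls of Hdac3, Rxra and Thra were lost, as given above. So were those of Thrb for pituitary minus hypothalamus and of Rxrg for thyroid minus hypothalamus. With 3 mice per group, single libraries were not tested for standing apart.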

How the results depend on the processing

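The calls of Thrb in the pituitary and thyroid and of Rxrg in the pituitary held in all 15 alternatives, with log2 fold changes of 0.55 to 0.73, -1.47 to -1.23 and 0.39 to 0.49. Rxrg in the thyroid could not be tested with a minimum of 1 CPM in every library. Leaving out 1 mouse at a time, the members called in the thyroid ranged from 1 to 4 and those for pituitary minus hypothalamus from 0 to 1. The genes called ranged from 0 to 6 in the hypothalamus, 625 to 1345 in the pituitary, 3602 to 5106 in the thyroid, 228 to 446 for pituitary minus hypothalamus and 3476 to 4680 for thyroid minus hypothalamus. DESeq2 called 9 genes in the hypothalamus, and a minimum of 1 CPM in every library left 343 calls for pituitary minus hypothalamus. For thyroid minus hypothalamus 5 members were called with totals recomputed without the 10 highest genes and 5 with the replicate block, which changed no other call of a member. Removing a mouse leaves fewer samples; the causes of the other changes were not tested.

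Signs turned only for members that had not passed with the settings described above. With a mouse left out, the hypothalamus log2 fold changes ranged from -0.055 to 0.026 for Thra, -0.080 to 0.017 for Thrb, -0.010 to 0.025 for Rxrb, -0.28 to 0.052 for Rxrg, -0.014 to 0.085 for Ncor1, -0.032 to 0.050 for Ncoa1 and -0.048 to 0.013 for Ncoa2. Those of the pituitary ranged from -0.056 to 0.25 for Thra, -0.16 to 0.022 for Ncor1, -0.19 to 0.017 for Ncoa2 and -0.046 to 0.0895 for Hdac3, and that of Ncoa2 in the thyroid from -0.11 to 0.13. Between WT tissues Ncoa1 ranged from -0.031 to 0.15 (pituitary against hypothalamus) and Ncor1 from -0.041 to 0.10 (thyroid against pituitary). In the differences of genotype effects Thra ranged from -0.012 to 0.22 and Ncoa2 from -0.16 to 0.054 (pituitary minus hypothalamus), and Ncoa2 from -0.075 to 0.12 (thyroid minus hypothalamus) and -0.040 to 0.25 (thyroid minus pituitary). Totals without the 10 highest genes gave -0.031 for Hdac3 in the pituitary, -0.24 for Ncor1 (WT thyroid against pituitary, then called) and -0.082 for Ncoa2 (thyroid minus hypothalamus). For Ncoa2, DESeq2 gave 0.0038 in the thyroid and edgeR -0.0040 for thyroid minus hypothalamus, and median-of-ratios scaling gave -0.0029 for Ncoa1 (WT pituitary against hypothalamus).

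With 3 mice a group, a change of the size of Ncoa1 in the pituitary or of Ncor1 and Hdac3 in the thyroid lies at the limit of what passes. In the K146Q thyroid Rxrg rests on few reads. The Thrb isoforms cannot be told apart in gene-level values. All levels given here are of mRNA. For THRB protein, the study's Western blots found similar total amounts in both genotypes in the thyroid and pituitary.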
